A study of Drosophila melanogaster with 6 samples.

Results

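5 genes of redox defence were followed through an array study of methotrexate, an antifolate drug, in Drosophila melanogaster. They were Trx2, a thioredoxin, Prx3, the mitochondrial peroxiredoxin, Sod2, the manganese superoxide dismutase of mitochondria, GstZ2, a zeta-class glutathione transferase, and Keap1, the sensor that restrains the antioxidant transcription factor CncC. They were taken by name from a list and matched by Entrez gene number, and they are 5 of the 2377 genes on the ovary arrays, 5 of the 6795 on the S3 arrays and 5 of the 7350 on either. The list was chosen from earlier results of these same arrays, so their ovary values are given as a description with no test, and the test values given for the S3 arrays describe the fit only.

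Each array held treated and untreated total RNA in 2 dyes, and the deposited value of a spot is the log ratio of the 2 channels, taken here as log2. In the ovary group (2 arrays) flies had been given 0 or 5 ppm methotrexate for 5 days before their ovaries were dissected. In the S3 group (4 arrays) cells of S3, a cultured line of embryonic origin, had been kept in 0 or 5.2e-08 M of the drug for 4 days. Strain and age of the flies, how many were pooled, and the passage of the cells are not stated in the labels, nor is it said whether arrays of a group came from separate flies or cultures. A p-value therefore reflects how far arrays differ, possibly for technical reasons alone, and in ovary RNA fewer cells of a type and less RNA per cell cannot be told apart.

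No ratio below has a direction relative to methotrexate. Which channel was divided by which is not stated in the labels, and on both ovary arrays the labels give Cy5 to the treated RNA although the series text speaks of swapped dyes. If ratios are of one dye over the other, both ovary arrays run the same way for the drug, and a ratio may belong to the drug or to the dye, which cannot be told apart. If they are of one channel over the other, the arrays run opposite ways, since the treated RNA is channel 1 on array 1 and channel 2 on array 2. Turning array 2 for that reading gives means of -0.0055 for Trx2, 0.031 for Prx3, -0.33 for Sod2, -0.11 for GstZ2 and -0.32 for Keap1. Ovary means below are those of the values as deposited, and equal signs on both arrays say nothing of the drug. For S3 the labels give Cy3 to the treated RNA on arrays 1, 3 and 4 and Cy5 on array 2, with the treated RNA in channel 2 on all 4, so that array 2 is to be turned in the reading by dye and not in the reading by channel. S3 values are therefore given as deposited and also with the sign of array 2 turned, and signs are not compared between S3 and ovary.

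These genes belong to related parts of redox defence. Sod2 converts superoxide leaking from the mitochondrial respiratory chain into hydrogen peroxide, which peroxiredoxins such as Prx3 reduce to water. Thioredoxins, the family of Trx2, hand electrons to peroxiredoxins and are themselves recharged by thioredoxin reductases such as Trxr1. Whether Trx2 serves Prx3 was not tested. In flies this system also keeps glutathione reduced, since flies lack glutathione reductase. Glutathione transferases couple glutathione to reactive compounds, and in mammals the zeta class also isomerises maleylacetoacetate in tyrosine breakdown. Keap1 holds CncC, a product of the cnc gene, for degradation through the ubiquitin ligase scaffold Cul3, and released CncC pairs with maf-S to switch on detoxification genes, many glutathione transferases among them. Methotrexate itself inhibits dihydrofolate reductase, which keeps the folate cofactors of nucleotide synthesis in their active form.

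The arrays carry patterns, taken here as print patterns, that touch the values of these genes. No source used here states the print layout, and it was inferred from repeats in the ratios themselves. All blocks, rows and print neighbours named here are those of the inferred layout. Shares of variance by block or row describe the ratios and cannot test that layout, since the same ratios gave it. On the ovary arrays the position of the row within its block accounted for 20.8% and 15.9% of the variance of spots. Row medians correlated between these arrays at r = 0.935 over 22 rows. On S3 arrays 1 and 2 the block accounted for 15.5% and 19.0% of the variance. Each value is therefore given with arrays centred on their median, with print blocks centred, and with blocks and then rows centred. The correlation over genes (not independent of each other) was r = 0.753 for the ovary arrays, and for pairs of S3 arrays it lay between -0.187 and 0.206 as deposited. With print blocks centred all 6 S3 pairs were positive, from 0.0605 to 0.180. With limma and Benjamini-Hochberg adjustment over all genes, 926 of 2377 ovary genes (39.0%) passed an adjusted p of 0.05 with arrays centred on their median, 20.9% of all genes with a positive and 18.0% with a negative mean. That fit rests on 2 arrays and 1 residual degree of freedom per gene, and all genes shared 1 estimate of the spread. A gene's p there follows from its mean alone and does not show that its 2 arrays agree. The same holds for the ovary fit with blocks and rows centred.

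In ovary, Trx2 alone of the 5 stood on the positive side on both arrays, and Prx3, Sod2 and GstZ2 on the negative side on both. The 2 arrays of Keap1 lay on opposite sides of 0. Trx2 had log2 ratios of 0.89 on array 1 and 0.90 on array 2, a mean of 0.90 ± 0.01 (SD, n = 2), or a channel ratio of 1.86. GstZ2 was the lowest at -1.08 and -0.85 (-0.97 ± 0.16, SD, n = 2), a channel ratio of 0.511. Prx3 followed at -0.85 and -0.91 (-0.88 ± 0.04, SD, n = 2), and Sod2 at -1.10 and -0.45 (-0.78 ± 0.46, SD, n = 2). The ranges of these 3 genes overlap, so their order is not larger than the spread between arrays. Keap1 read -0.54 on array 1 and 0.10 on array 2, a mean of -0.22 ± 0.45 (SD, n = 2), and its range overlaps that of Sod2 but not those of Prx3, GstZ2 or Trx2.

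Many other ovary genes had ratios of this size. The middle of all 2377 genes, from the 10th to the 90th percentile, ran from -0.78 to 1.03, with a median of -0.14. Trx2, Sod2 and Keap1 lay inside that span and Prx3 and GstZ2 just below it. There were 321 genes above Trx2, while 85 genes were below GstZ2, 140 below Prx3, 244 below Sod2 and 1088 below Keap1. Both arrays were negative for 45.2% of all genes and positive for 36.9%.

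**Figure D1:**
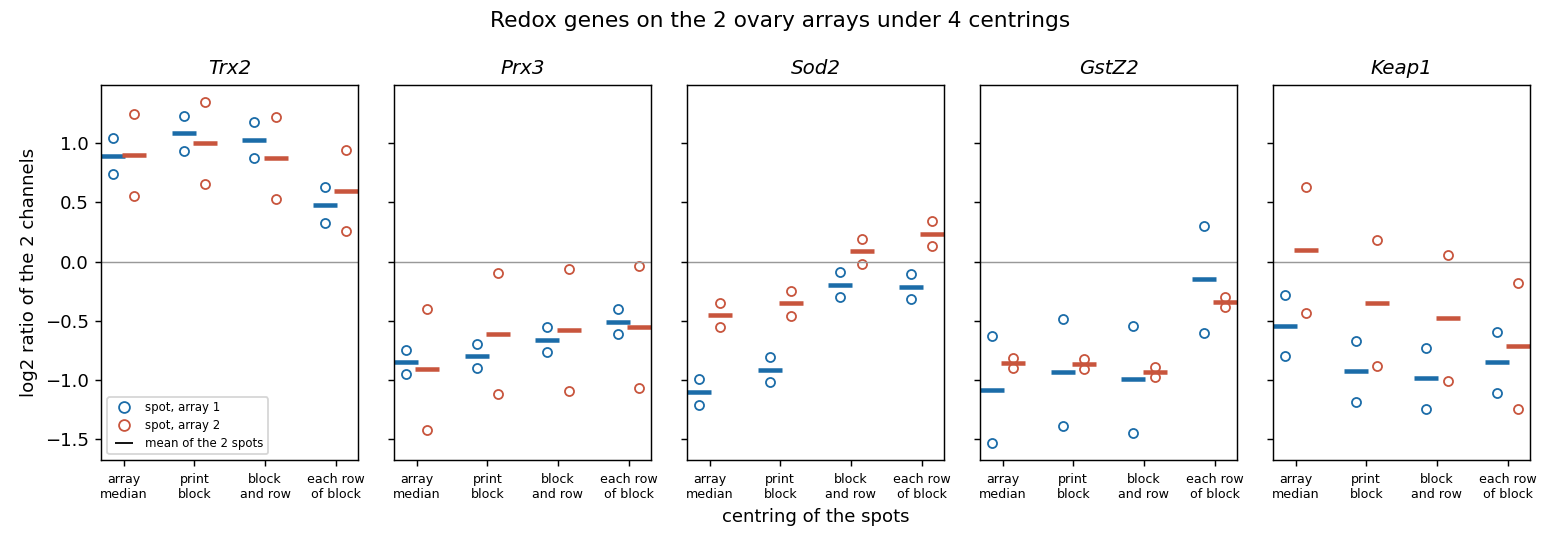
Log2 ratio of the 2 channels for each of the 5 genes on the 2 ovary arrays, under 4 centrings of the spots (x axis); circles are single spots, bars the mean of the 2 spots of a gene on 1 array. Trx2 is positive and Prx3 negative in every spot and centring shown, Sod2 moves to about 0 once rows are centred, and Keap1 moves down.

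Trx2 was positive in each of its 2 neighbouring spots on each array. The spots read 0.74 and 1.04 on array 1, and 1.25 and 0.56 on array 2, so that the close match of the array means (0.89 and 0.90) is tighter than the match of the spots behind them. With blocks centred Trx2 read 1.083 and 1.003, and with blocks and rows centred 1.03 and 0.88 (0.95 ± 0.11, SD, n = 2). Neither step lowered it to the level of its print neighbours: the other 22 spots of its row in the same block had medians of 0.25 on array 1 and 0.16 on array 2. Even so, 2 of the 11 other spot pairs in that row had a higher mean than Trx2. Print medians and neighbours here take in spots with no gene in the annotation, 11078 of 16896 in ovary and 12430 of 27648 in S3. Counting spots of 1 gene, the ovary row held 6 other genes for Trx2, 8 for Sod2 and 3 for GstZ2. For Prx3 and for Keap1 it held 1 other gene each.

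Prx3 was negative in all of its spots too, but its duplicates differed on array 2. They read -0.95 and -0.74 on array 1, and -1.42 and -0.40 on array 2, where a difference of 1.03 between duplicates exceeds the 90th percentile over all pairs of that array, 0.63. The block-centred values were -0.80 and -0.61, and with rows centred too they were -0.66 and -0.58 (-0.62 ± 0.06, SD, n = 2). Prx3 thus kept its sign on both arrays under each centring and came nearer to 0. Its print neighbours were also negative but less so, with medians of -0.22 and -0.35 over the other 22 spots of the row, and 9 of 11 neighbouring pairs lay above it.

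Sod2 was the one of the 5 whose mean ratio moved most when rows were centred. Its spots agreed within each array, at -1.21 and -0.995 on array 1 and -0.55 and -0.35 on array 2. Centring of blocks alone left it at -0.91 and -0.35, but centring of blocks and rows brought it to -0.20 and 0.089, a mean of -0.05 ± 0.20 (SD, n = 2). Sod2 was printed in row 21 of its block, a row whose spots across all blocks had medians of -0.72 on array 1 and -0.44 on array 2 once blocks were centred. The other 22 spots of that row in its own block had medians of -0.87 and -0.73, and of the 11 pairs 5 lay above Sod2 and 6 below. Sod2 was therefore in the middle of its immediate print neighbours, and its negative ovary ratio did not stand apart from theirs. Trx2 was printed in the same block, 19, in row 12, and kept its value under the same centring. With each row of each block set to a median of 0, however, its mean came down to 0.54 ± 0.09 (SD, n = 2).

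GstZ2 hardly moved under centring of blocks and rows, and moved far under a finer centring. Its spots read -0.63 and -1.53 on array 1, a difference of 0.91 that is above the 90th percentile of that array (0.60), and -0.81 and -0.90 on array 2. With blocks centred it read -0.94 and -0.87, and with blocks and rows centred -0.99 and -0.93 (-0.96 ± 0.04, SD, n = 2). The row centring takes the median of a print row over all 32 blocks, so it leaves what 1 row of 1 block does by itself. In the block of GstZ2 the other 22 spots of its row had medians of -0.93 and -0.48, close to GstZ2 on array 1, and 7 of 11 pairs lay above it and 4 below. When the median of each row within each block was set to 0, a centring added after these neighbours were seen, GstZ2 read -0.15 and -0.34 (-0.25 ± 0.14, SD, n = 2).

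Keap1 went the opposite way to Sod2. Its spots disagreed on array 2, where they read 0.63 and -0.43, a difference of 1.06, and were -0.80 and -0.28 on array 1. Its print block had high medians, 0.39 on array 1 and 0.46 on array 2, and with blocks centred Keap1 read -0.93 and -0.35. With blocks and rows centred it read -0.98 and -0.48 (-0.73 ± 0.36, SD, n = 2), and with each row of each block centred -0.85 and -0.71 (-0.78 ± 0.10, SD, n = 2). The other spots of its row had medians of 0.55 and 0.82, and 8 of 11 pairs lay above it. Keap1 therefore had array values on opposite sides of 0 against the array, and array means below its print neighbours on both arrays. On array 2, however, 1 of its 2 spots stayed above 0 with blocks centred (0.18, the other -0.89). The same spot did so with blocks and rows centred (0.053, the other -1.01).

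Under that finest centring Trx2 read 0.48 and 0.60 (0.54 ± 0.09, SD, n = 2), Prx3 -0.51 and -0.55 (-0.53 ± 0.03, SD, n = 2), and Sod2 -0.21 and 0.24 (0.01 ± 0.32, SD, n = 2). In array means, Trx2, Prx3, GstZ2 and Keap1 then each had the same sign on both arrays, and Sod2 did not. GstZ2 was the nearest to 0 of those with the same sign, and its 2 spots on array 1 read 0.30 and -0.60. With no centring the ratios as deposited were 0.999 and 0.96 for Trx2, -0.74 and -0.85 for Prx3, -0.995 and -0.39 for Sod2, -0.98 and -0.79 for GstZ2, and -0.43 and 0.16 for Keap1. The order from highest to lowest was Trx2, Keap1, Sod2, Prx3 and GstZ2 in the deposited values and after centring on the array median, and Trx2, Sod2, Prx3, Keap1 and GstZ2 after centring of blocks and rows. In the second order Prx3 and Keap1 overlap, as do Keap1 and GstZ2.

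The share of all genes past the threshold moved with these centrings as well. With blocks and rows centred it was 32.3% (17.8% positive, 14.5% negative), and with each row of each block centred it was 25.9%. No calls are given for the 5 genes, since the same ratios chose them.

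**Figure D2:**
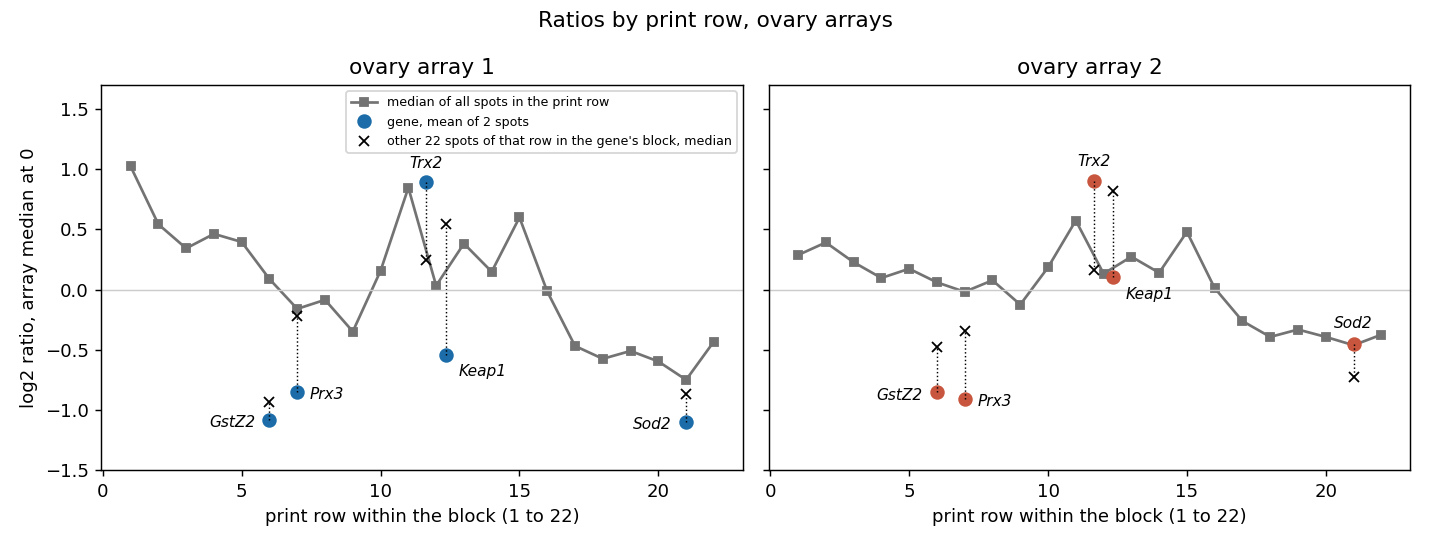
Log2 ratio (y axis, array median at 0) by print row within the block (x axis) on ovary arrays 1 and 2; grey squares are medians of all spots in a print row, circles the 5 genes, and crosses, joined to them by dotted lines, the medians of the other 22 spots of the same row and block. Trx2 and Keap1, both in row 12, are drawn slightly to the left and right of it. Sod2 sits in row 21, where all spots were low, while Trx2, Prx3 and Keap1 lie away from their print neighbours on both arrays.

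**Figure D3:**
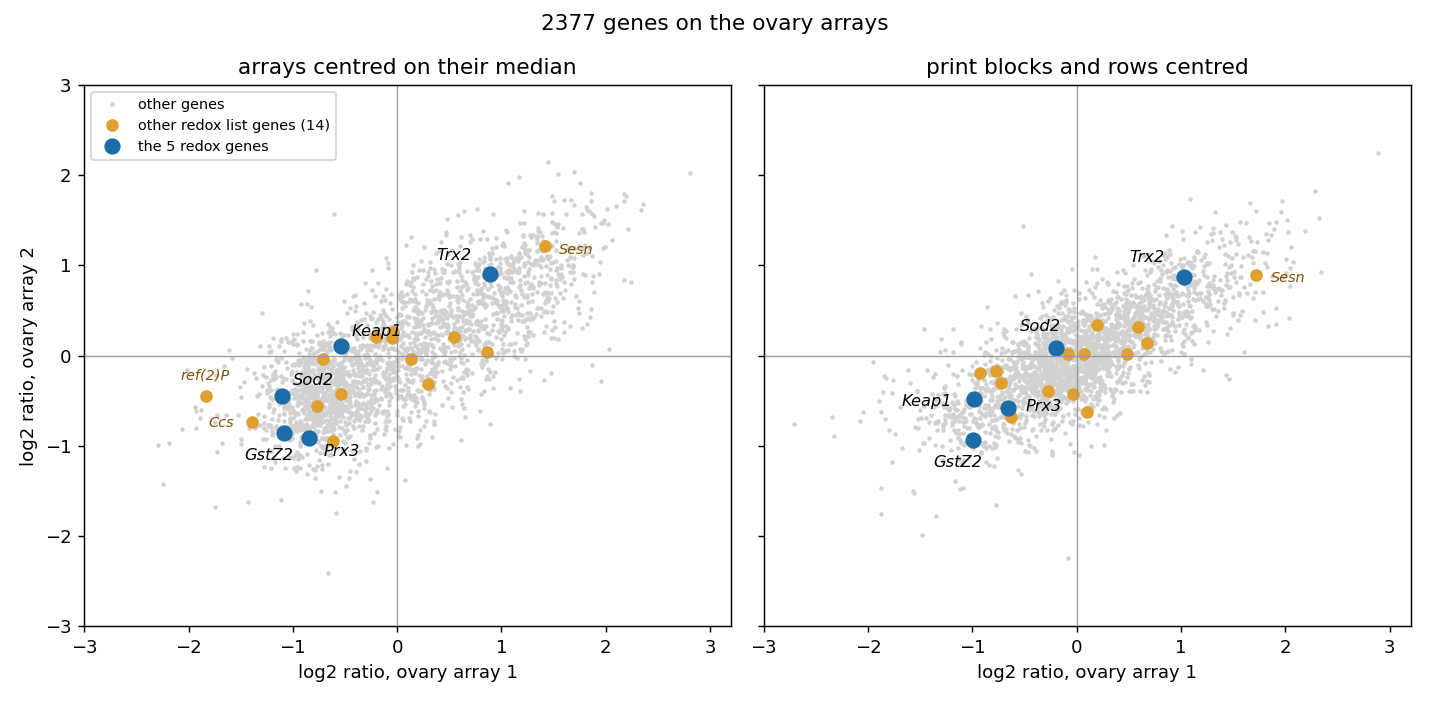
Log2 ratio on ovary array 1 (x axis) against array 2 (y axis) for 2377 genes, with arrays centred on their median (left) and with print blocks and rows centred (right); blue points are the 5 redox genes and orange points 14 other genes of the redox list. Trx2 stays in the upper right, GstZ2 and Prx3 stay in the lower left, and Sod2 and Keap1 change places.

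On the S3 arrays none of the 5 genes passed the test. With arrays centred on their median and array 2 turned, 0 of 6764 genes (0.0%) passed the adjusted threshold of 0.05 in limma, and 505 lay under 0.05 unadjusted. With array 2 as deposited it gave 3 genes (0.0444%), none of them among the 5. Over 18 settings of the S3 fit the adjusted p of GstZ2 ran from 0.454 to 0.999, that of Keap1 from 0.567, Sod2 from 0.697, Prx3 from 0.705 and Trx2 from 0.857, each up to 0.999. A p that misses the threshold does not show that a gene did not differ between treated and untreated cells.

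GstZ2 was the only one of the 5 with the same sign on all 4 S3 arrays as deposited. Its log2 ratios were 0.55, 0.58, 1.42 and 0.37 on the 4 arrays in turn, averaging 0.73 ± 0.47 (SD, n = 4), and 25 of the 6795 genes had a higher mean. As deposited, 6.77% of all genes were positive on all 4 arrays and 7.17% negative on all 4. The high value of array 3 came from 1 of its 2 spots, which read 2.66 where the other read 0.17. With array 2 turned, the mean was 0.44 ± 0.82 (SD, n = 4) with a limma adjusted p of 0.700, and as deposited the adjusted p was 0.683 and the unadjusted p 0.00939, from limma's test over all genes.

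Centring of print blocks moved the S3 mean of GstZ2 little within each reading of array 2, but the readings differed. As deposited it was 0.70 ± 0.49 (SD, n = 4; limma adjusted p = 0.454), and turned it was 0.35 ± 0.85 (SD, n = 4; limma adjusted p = 0.876). With arrays centred on their median, 0 of the 11 other pairs in its print row had a higher mean as deposited, and 4 of 11 with array 2 turned, when 340 genes had a higher mean. Without array 3 the mean with array 2 turned was 0.12, so that array carried most of it in that reading. The other zeta-class gene on the S3 arrays, GstZ1, read -0.48, 0.36, -0.32 and -0.81, a mean of -0.31 ± 0.49 (SD, n = 4). With array 2 turned GstZ1 was negative on all 4 arrays, at -0.49 ± 0.22 (SD, n = 4) with a limma adjusted p of 0.650.

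Keap1 was near 0 on 3 S3 arrays and high on 1. It read -0.098, -0.069 and 0.008 on arrays 1, 3 and 4, and 1.16 on array 2, where its spots were alike at 1.19 and 1.12. The mean was 0.25 ± 0.61 (SD, n = 4) as deposited and -0.33 ± 0.55 (SD, n = 4) with array 2 turned, with a limma adjusted p of 0.735. Its print block had a median of 0.52 on array 2, and with blocks centred Keap1 read 0.19, 0.63, 0.12 and -0.14. Array 2 was then still the highest, by a smaller gap.

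Trx2 and Prx3 had ratios of mixed sign in both readings of array 2, with means smaller than their spread, while Sod2 depended on the reading. Trx2 read -0.32, -0.030, 0.28 and -0.38 (-0.11 ± 0.31, SD, n = 4) as deposited and -0.10 ± 0.31 with array 2 turned (limma adjusted p = 0.932). Prx3 read -0.39, 0.32, 0.28 and -0.47 (-0.06 ± 0.42, SD, n = 4) as deposited and -0.23 ± 0.34 with array 2 turned (limma adjusted p = 0.789). On array 2 the block median of Prx3 was 0.32, and its block-centred ratio there was about 0. Sod2 read 0.31, -0.20, 0.12 and 0.17 (0.10 ± 0.22, SD, n = 4), and with array 2 turned all 4 values were positive, at 0.20 ± 0.08 (SD, n = 4) with a limma adjusted p of 0.796. Sod2 had the smallest spread of the 5 in that reading. With print blocks centred and array 2 turned, the mean of Sod2 was 0.15 ± 0.10 (SD, n = 4). It was 0.14 ± 0.10 with blocks and rows centred and 0.07 ± 0.05 with each row of each block centred (SD, n = 4). Trx2 with print blocks centred was at -0.11 ± 0.30 as deposited and -0.10 ± 0.31 with array 2 turned (SD, n = 4).

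**Figure D4:**
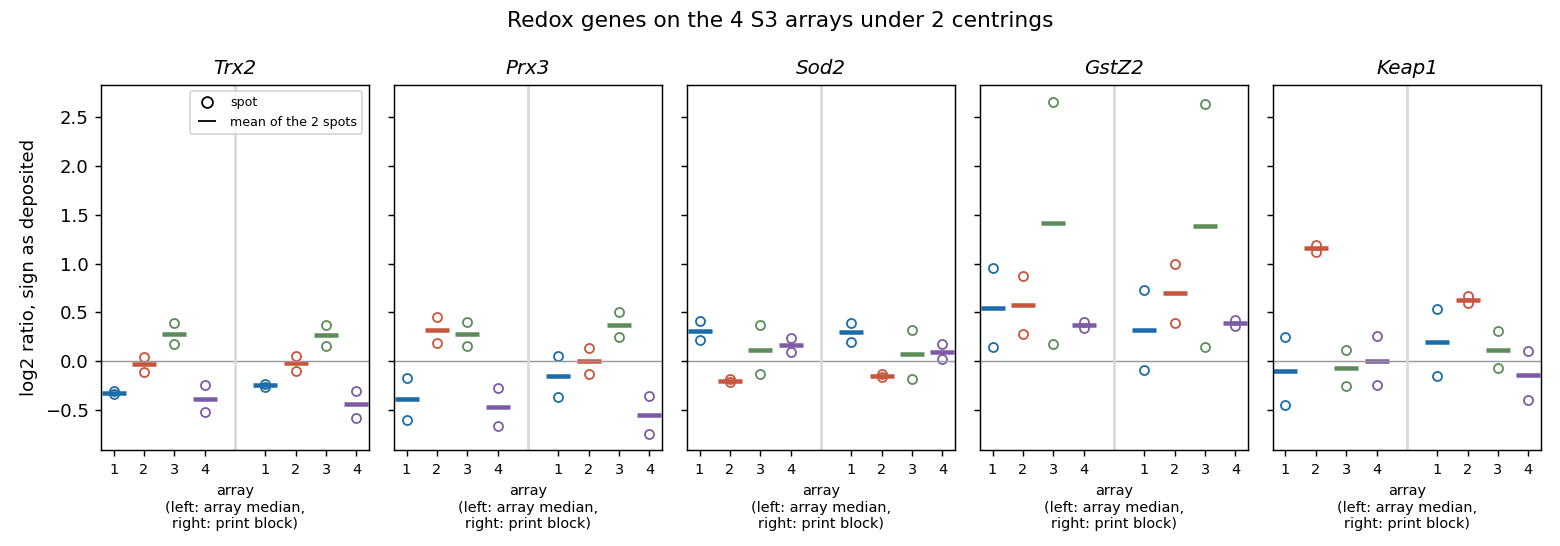
Log2 ratio as deposited (y axis) of the 5 genes on S3 arrays 1 to 4 (x axis), with arrays centred on their median at the left and print blocks centred at the right of each panel; circles are spots, bars the mean of the 2 spots. GstZ2 is above 0 on every array with 1 far spot on array 3, and Keap1 is high on array 2 only.

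Duplicate spots of the 5 genes often disagreed in ovary. In 4 of 10 gene and array pairs the difference exceeded the array's 90th percentile (Prx3, Keap1 and Trx2 on array 2, GstZ2 on array 1), against 1 of 20 on the S3 arrays (GstZ2 on array 3, a difference of 2.48). The S3 percentiles are themselves wide, from 1.23 to 1.46, and duplicates over a whole S3 array correlated at only r = 0.252 to 0.474, against 0.910 and 0.839 in ovary.

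The wider redox machinery was represented by a list of 93 genes in 9 families, of which 19 were on the ovary arrays and 53 on the S3 arrays. Of the 14 ovary genes besides the 5, limma passed 5 with arrays centred on their median, 35.7%, a share near the 39.0% of all genes. With blocks and rows centred it passed 2 of 14, against 32.3% of all genes. Of the 5 that passed, 1 was positive and 4 were negative. With arrays centred on their median, the median of the 14 was -0.002 against -0.14 for all genes. With blocks and rows centred it was -0.13 against -0.02, so that its place relative to all genes turned with the centring. All these counts, and the p-values of ovary list genes below, belong to the values as deposited. The list was drawn up with earlier results of these data known, so its counts and p-values describe the fit only. With ovary array 2 turned, limma passed 0 of the 14 and 0 of all 2377 genes.

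Sod3 and Ccs, the other genes analysed in ovary from the superoxide dismutase and catalase family, were negative on both arrays. So were 45.2% of all genes. Sod3, an extracellular copper-zinc superoxide dismutase, read -0.77 and -0.56 in ovary (-0.67 ± 0.15, SD, n = 2; limma adjusted p = 0.0423). With blocks and rows centred it was -0.65 ± 0.03 (SD, n = 2) with a limma adjusted p of 0.0209. With each row of each block centred, however, Sod3 was at -0.072 ± 0.030 (SD, n = 2; limma adjusted p = 0.831), and with print blocks alone centred its adjusted p was 0.0655. Ccs, the chaperone that loads copper into superoxide dismutase, read -1.39 and -0.73 (-1.06 ± 0.47, SD, n = 2; limma adjusted p = 0.00107), and with blocks and rows centred -0.52 ± 0.30 with an adjusted p of 0.0773, and it did not pass with each row of each block centred either (0.261). Sod1 and Cat, the catalase gene, were in the list and were not analysed here.

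Partners of Keap1 were measured too. Cul3 read 0.13 and -0.034 in ovary (0.05 ± 0.12, SD, n = 2), with the arrays on opposite sides of 0. ref(2)P, the fly p62, an autophagy receptor that binds Keap1, read -1.84 and -0.45 (-1.14 ± 0.98, SD, n = 2; limma adjusted p = 4.38e-04), and with blocks and rows centred -0.56 ± 0.52 with an adjusted p of 0.0553. It passed with print blocks centred (limma adjusted p = 3.15e-04) and with each row of each block centred (0.0171), at -1.13 ± 0.71 and -0.78 ± 0.44 (SD, n = 2). Grx1t, a glutaredoxin, read -0.62 and -0.95 (-0.78 ± 0.24, SD, n = 2; limma adjusted p = 0.0172) and -0.23 ± 0.28 with blocks and rows centred (adjusted p = 0.502). With each row of each block centred its adjusted p was 0.735.

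On the positive side Sesn, the sestrin, a stress-induced regulator of growth signalling, stood above Trx2. It read 1.42 and 1.21 (1.31 ± 0.15, SD, n = 2; limma adjusted p = 4.5e-05), and 1.31 ± 0.59 with blocks and rows centred (limma adjusted p = 9.96e-07). The second p is smaller although the 2 arrays lay further apart, since in both fits all genes shared 1 estimate of the spread. In the values as deposited, Sesn was the 1 gene of the 14 that passed on the positive side under each of these centrings. With each row of each block centred it was at 0.88 ± 0.24 (SD, n = 2; limma adjusted p = 0.00629). With ovary array 2 turned, neither Sesn nor any other gene passed. The other thioredoxins on the ovary arrays were TrxT, a testis form, at 0.11 ± 0.21 (SD, n = 2), and CG8517 at -0.48 ± 0.08 (SD, n = 2), neither past the threshold, and CG8517 was at 0.042 once blocks and rows were centred. GstE13, dj-1beta and mtd, at 0.45 ± 0.58, -0.38 ± 0.48 and 0.38 ± 0.24 (SD, n = 2), did not pass, and Gclm, Gtpx and GstE2 had means between -0.0075 and 0.075.

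**Figure D5:**
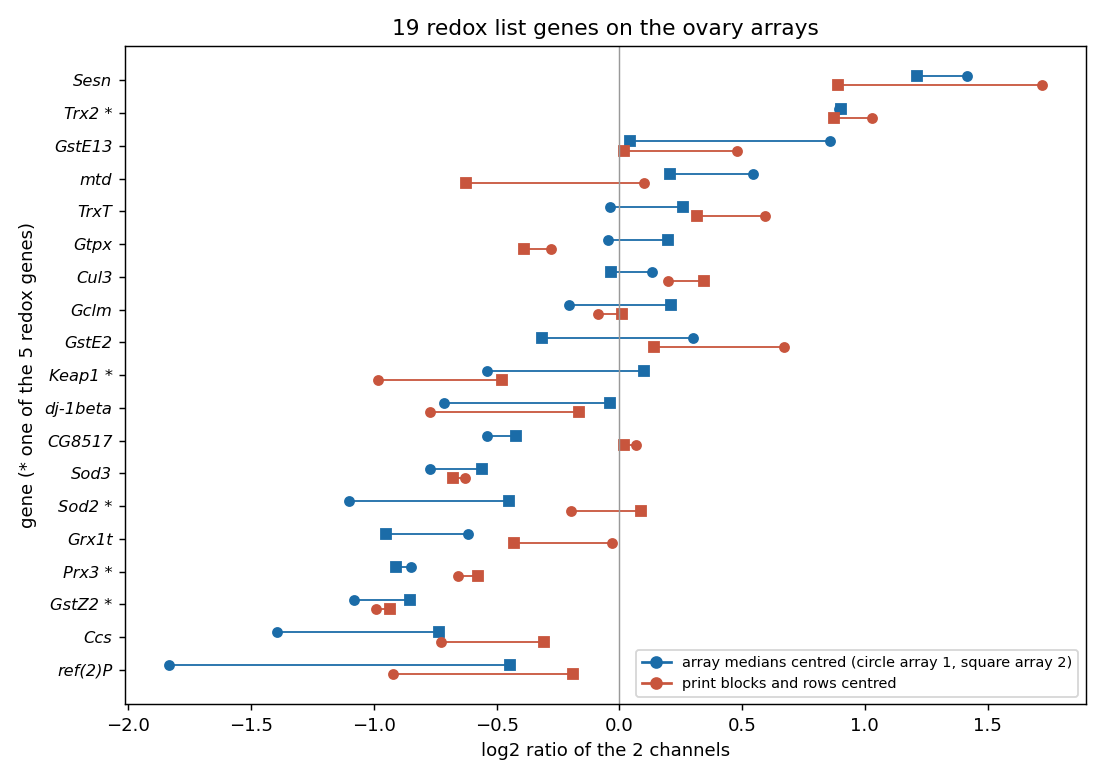
Log2 ratio (x axis) of the 19 redox list genes (y axis, asterisks mark the 5 genes) on ovary array 1 (circles) and array 2 (squares), with arrays centred on their median (blue) and print blocks and rows centred (red). Sesn and Trx2 lie on the positive side, and Sod2, CG8517 and Grx1t move towards 0 when rows are centred while Keap1 moves down.

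On the S3 arrays 0 of the 53 list genes passed in any setting run, against 0.0% of all genes with array 2 turned, and at an unadjusted p under 0.05 limma gave 5 of 53 (9.43%, against 7.47% of all genes). With array 2 as deposited there were 7 of 53 (13.2% against 6.16%), and 11 with print blocks also centred (20.8% against 9.52%). With blocks centred and array 2 turned there was 1 (1.89% against 4.89%). Besides GstZ2, 24 glutathione transferases were measured, of which 8 had a positive and 16 a negative mean as deposited. Of all 6764 genes, 3371 had a positive and 3393 a negative mean in that reading. As deposited 7 of the 24 (29.2%, against 7.17% of all genes) were negative on all 4 arrays and 1, GstE12, was positive on all 4. With array 2 turned, 7 means were positive and 17 negative, against 3194 and 3570 of all genes. In that reading 2 of 24, GstD8 and GstZ1, were negative on all 4 arrays (8.33%, against 8.93% of all genes), and 1, GstE13, was positive on all 4. GstZ2 had the highest mean of the family as deposited, 0.73 against 0.49 ± 0.53 (SD, n = 4) for GstE13. The order was the other way with array 2 turned, at 0.44 ± 0.82 for GstZ2 and 0.54 ± 0.47 for GstE13 (SD, n = 4).

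Sod3 was negative on all 4 S3 arrays as deposited. It read -0.39, -0.87, -0.75 and -0.66 (-0.67 ± 0.20, SD, n = 4), and -0.72 ± 0.07 (SD, n = 4) with print blocks centred, with a limma adjusted p of 0.227. With array 2 turned it was -0.23 ± 0.75 (SD, n = 4; limma adjusted p = 0.840), so that this value hangs on the unsettled sign of array 2. Sod2 and Sod3 had opposite signs on S3 arrays 1, 3 and 4.

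By smallest p with array 2 turned, the further transferases were led by GstD8 and GstO3. GstD8 read -0.28, 0.37, -1.62 and -1.01, with a mean of -0.82 ± 0.63 (SD, n = 4) with array 2 turned and a limma adjusted p of 0.650. GstO3, of the omega class, read -1.40, -0.15, -1.49 and -0.44 (-0.87 ± 0.67, SD, n = 4) as deposited. GstD3, GstD5, GstE3 and GstT3 had means with array 2 turned between -0.50 and -0.31, and none of them passed.

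Members of the thioredoxin and peroxiredoxin systems around Trx2 and Prx3 were mixed in S3 cells. Trxr1, which recharges thioredoxin, read 0.74, -0.23, 0.20 and 0.44, and with array 2 turned it was positive on all 4 arrays at 0.40 ± 0.25 (SD, n = 4), with a limma adjusted p of 0.653. Its mitochondrial relative Trxr2 read -0.31 ± 0.44 (SD, n = 4) as deposited and -0.03 ± 0.57 with array 2 turned. The other thioredoxins dhd, an egg form, TrxT, Txl, CG8993 and CG8517 had means between -0.16 and 0.27 as deposited, with none of the same sign on all 4 arrays. With array 2 turned CG8993 was negative on all 4, at -0.37 ± 0.38 (SD, n = 4), and did not pass. The peroxiredoxins Prx6a, Prx6c and CG12896 had positive means as deposited, 0.11 ± 0.08, 0.15 ± 0.76 and 0.40 ± 0.52 (SD, n = 4), on the other side of 0 from Prx3. Of Keap1's partners, maf-S and Cul3 had means of 0.11 ± 0.45 and 0.03 ± 0.40 (SD, n = 4) as deposited, and cnc was not analysed here.

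Across all 6 arrays the genes most like each of the 5 were found by the root mean square difference of ratios over 1814 other genes on both designs. The ratios were as deposited, with arrays centred on their median. Nearest to Trx2 were Rbpn-5 (0.15) and CG9986 (0.17), against a median of 0.80 over all genes. Nearest to Prx3 were CG4480 (0.15) and dpr18 (0.16), and nearest to Sod2 were CG31904 (0.14) and CG5880 (0.19), with medians of 0.73 and 0.68. Keap1 had heca (0.22) and Hsc70-2 (0.23), which shared its high value on S3 array 2 at 0.84 and 0.88, against a median of 0.74. GstZ2 had no gene as near as the others did: Proc-R at 0.35 and CG15136 at 0.39, against a median of 0.996. Its ratio of 1.42 on S3 array 3 came from 1 of its 2 spots, at 2.66 where the other read 0.17. The part of that spot in these distances was not tested. The medians give the scale only, since a nearest gene must lie below them. None of the 5 was among the nearest 2 of another: Sod2 and Prx3, the nearest of them, were 0.49 apart, and Trx2 was between 0.86 and 1.29 from each of the others.

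The tissue labels could not be checked against the levels of defining markers, because ratios hold no level. On the ovary arrays 0 of 8 germline and 0 of 16 follicle cell and eggshell markers were among the genes analysed, so a shift between germline and follicle cells could not be followed beside the 5 genes. Of markers of other cell types, 2 of 7 for fat body were measured and neither passed. Of 3 measured hemocyte markers, with means from -0.55 to 1.42, 1 passed with arrays centred on their median, where 39.0% of all genes passed. After centring of blocks and rows 2 of the 3 passed, against 32.3% of all genes. The muscle gene up was at -0.54 and did not pass with arrays centred on their median. It was at -0.83 and passed with blocks and rows centred. With ovary array 2 turned, 0 of all 2377 genes passed. Their part in the ratios of the 5 genes was not tested.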

How the data were processed

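The deposited values are log2 ratios of the 2 channels of each spot, per the series' value table; the base is taken as 2, and the authors' background correction, normalization and numerator are not given in the sources used here, nor is signal over background, so depth per array is unknown. The number of arrays limits the precision. Spots were named through the platform annotation by Entrez gene number, with symbols of Release 6 of the Drosophila genome. Spots with 1 gene were averaged per gene and array after centring: array median, print block, block and row, or, added after seeing the data, each row of each block. Genomic positions were left out, as the sources used here name no build. Layouts (32 blocks of 22 rows, and 48 blocks of 24) were read from the period of the values. Means were tested against 0 with limma 3.58.1 (lmFit, eBayes; R 4.3.3), two-sided, Benjamini-Hochberg over all genes, threshold 0.05; the test was also tested on simulated data. Plots used Python 3.11.15 and matplotlib 3.10.9. The 5 genes and all lists were chosen with earlier results of these data known. Named genes are the 5, their relatives and partners, up to 8 further list genes per group by smallest p, and the 2 nearest genes of each. Alternatives were scaling, sign of array 2, robust eBayes, a dye term, a joint fit, single spots and arrays left out.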

Additional observations from a re-analysis of the deposited data

Results flagged for a closer look

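Keap1 on S3 array 2 stood away from the other S3 arrays. As deposited, array 2 was the highest of 4, and its gap to the next array was 0.916 of the whole range, above Dixon's critical value for 4 samples. With array 2 turned it was the lowest, with a ratio of 0.909. Both spots of Keap1 were high there (1.19 and 1.12), and the median of its print block on that array was 0.52. Chance flags about 1 in 20 groups, and 5 genes were looked at in each of 2 readings. These ratios are of values centred on the array median only. With print blocks centred Keap1 read 0.19, 0.63, 0.12 and -0.14 on the arrays in turn as deposited, with array 2 still the highest by a smaller gap. The part of the print block or of the dyes, which differ on array 2, was not tested.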

How the results depend on the processing

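The number of ovary genes past the threshold (926) fell to 615 when each row of each block was centred, to 306 of 1815 in a joint fit with S3, and to 0 with ovary array 2 turned. In joint fits without replicate 1 or 2, where the lone ovary array is assumed to vary like the S3 arrays, it was 0 and 1. The ovary redox list without the 5 genes had 5 of 14 past the threshold (35.7%, against 39.0% of all genes). This became 2 of 14 (14.3%, against 25.9%) with each row of each block centred and 3 of 13 (23.1%, against 16.9%) in the joint fit. With array 2 turned it was 0 of 14. S3 calls (0) became 3 with array 2 as deposited, 5 with no centring as well, and 0 to 1 with 1 replicate left out, 1 without replicate 2. Signs turned for Trx2 (-0.0055) and Prx3 (0.031) in ovary with array 2 turned, for Sod2 in ovary with each row of each block centred (0.012), for Keap1 in ovary without replicate 1 (0.10, and -0.54 without replicate 2), and for Prx3 in S3 with no centring and array 2 as deposited (0.0083). Keap1 in S3 turned from -0.33 to 0.25 with array 2 as deposited, to 0.20, 0.21 and 0.27 with blocks, blocks and rows or each row of each block also centred, to 0.32 with no centring, and to 0.021 with each row of each block centred and array 2 turned. The causes were not tested. The list genes passed in none of the 18 other S3 settings. No paired analysis was possible because S3 and ovary arrays, which share replicate numbers, are of different designs and material and are not compared. Faint spots could not be set aside, since no intensities were used here.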
